A study of Mus musculus with 36 samples.

Results

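The 9 genes described here had been picked for their levels in the hypothalamus of the mouse strain NZO/HlLtJ: Wdfy1, Fggy, Tceanc2, Padi2, Pla2g4e, Tagap, Prss41, Ahcy and Mttp. They are 9 of the 24265 genes in the deposited table, and all 9 were among the 20053 genes that passed the filter on low counts. The 9 were taken by symbol, and the symbols had been chosen from strain differences in these same libraries. Their differences between strains are therefore given as a description, with an estimate and its standard error (SE) and no p-value, and counts of calls or of separate ranges in those contrasts restate the choice. The choice was by strain and not by diet or sex differences within a strain, so the latter were tested. It may still have favoured genes with little spread within a strain.

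The data are RNA-seq libraries of polyA RNA from whole hypothalamus, 36 in all, 12 from each of 3 inbred strains labelled WT. NZO/HlLtJ is a polygenic model of obesity and diabetes, CAST/EiJ is a wild-derived strain, and C57BL/6J is the strain of the mouse reference genome. Mice ate a control diet (10% fat, with fiber) or a diet high in fat and sugar (HFHS, 44% fat, with fiber) starting at 6 weeks of age, and the hypothalamus was collected at 15 weeks. Each strain and diet had 3 female and 3 male libraries, which makes 12 groups of 3. The labels do not say that the libraries of a group came from separate animals, so the p-values measure the spread between these libraries, which may be in part technical. In such bulk tissue fewer cells of a type and less RNA per cell cannot be told apart.

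The 9 genes have unrelated jobs. Ahcy encodes S-adenosylhomocysteine hydrolase, which clears the product left after every S-adenosylmethionine-dependent methylation reaction. Fggy is a carbohydrate kinase of the FGGY family, and Tceanc2 carries domains related to the transcription elongation factor TFIIS. Wdfy1 binds phosphoinositides on early endosomes and serves as an adaptor in toll-like receptor signalling. Pla2g4e is a calcium-dependent N-acyltransferase that makes the precursors of N-acylethanolamines, the lipid family of the endocannabinoid anandamide. Tagap is a GTPase-activating protein best known from activated T cells, and Prss41 is a serine protease. Padi2 converts arginine to citrulline in proteins such as myelin basic protein, and in the brain it is known from oligodendrocytes and other glia. Mttp, the microsomal triglyceride transfer protein, loads lipid onto apolipoprotein B and is best known from liver and intestine.

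The median library total was 34.6 M counts, and totals lay between 23.9 M and 47.3 M. All 36 libraries matched their labelled sex, and 0 pairs held identical values. The 16 hypothalamic marker genes had a summed level, in counts per 1000000 counts of the library (CPM), between 619 and 2153 over the 36 libraries. The C57BL/6J, CAST/EiJ and NZO/HlLtJ medians of that sum were 805, 1030 and 1016 CPM. The CAST/EiJ control female 1 library stood apart, with 2192 CPM summed over 5 pituitary markers and 6050 CPM over 9 oligodendrocyte markers. It also set the upper end of the hypothalamic sum at 2153 CPM, and the next highest library had 1312 CPM (CAST/EiJ HFHS male 1). The CAST/EiJ control male 1 library had 184 CPM of the pituitary markers, while the other CAST/EiJ libraries had 4.29 to 25.3 CPM. The strain difference of Padi2 from CAST/EiJ and the sex differences of Prss41 and Padi2 in CAST/EiJ are also described without these libraries.

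Ahcy and Tagap each have a near-identical copy elsewhere in the genome, and reads of a gene and its copy can be assigned to either. For Ahcy (chromosome 2, 155059310 to 155074497, GRCm38, minus strand) the copy is Gm4737 on chromosome 16 (46152997 to 46155077), annotated as protein coding. The reference transcripts of Ahcy and Gm4737 were 99.66% identical over 2086 bases, with 7 mismatches, and 67.4% of all 100-base windows of the Ahcy transcript occurred in Gm4737 without a mismatch. Only 4 substitutions fell in the 1299 coding bases (C459T, G474A, C1050T and C1068T, counted from the first coding base of Ahcy, with the base of Ahcy first). The stretch with the latter pair is printed for Ahcy, Gm4737 and a processed pseudogene, Gm9826, which equals Gm4737 in this stretch but has 11 coding substitutions from Ahcy in all, 23.5% shared windows and at most 0.183 CPM in any library. It covers coding bases 1029 to 1088 of the GENCODE transcripts, and capitals mark the positions that differ.
Ahcy: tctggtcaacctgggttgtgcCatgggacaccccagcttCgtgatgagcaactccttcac
Gm4737: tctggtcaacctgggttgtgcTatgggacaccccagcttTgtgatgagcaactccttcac
Gm9826: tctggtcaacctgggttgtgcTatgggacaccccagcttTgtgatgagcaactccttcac
Tagap (chromosome 17, 7926000 to 7934897, plus strand) has the copy Tagap1 on the same chromosome (6954965 to 6961156). These transcripts were 99.02% identical over 2152 bases, and 31.9% of the 100-base windows of Tagap occurred in Tagap1. The alignment covered 1382 of the 2145 coding bases of Tagap and held 10 substitutions there, of which 4 (G769A, C772A, T773A and C777A) lie in the stretch of coding bases 764 to 823.
Tagap: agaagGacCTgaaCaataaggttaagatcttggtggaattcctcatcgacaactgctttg
Tagap1: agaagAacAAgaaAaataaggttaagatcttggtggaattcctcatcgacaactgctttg

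Levels are given as TMM-scaled CPM, which are not per length and are compared only for the same gene between libraries. Fggy, Tceanc2 and Ahcy were low in NZO/HlLtJ alone by the class rule. That rule asked that the log2 differences of NZO/HlLtJ from both other strains have the same sign and a size of at least 1, with the difference of CAST/EiJ from C57BL/6J under 0.5 of the smaller of the 2. Over all tested genes 1.42% met this rule, and 0.668% met it with the lower level in NZO/HlLtJ. The contrasts are those the 9 genes were chosen on, so nothing is read from the comparison.

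**Figure D1:**
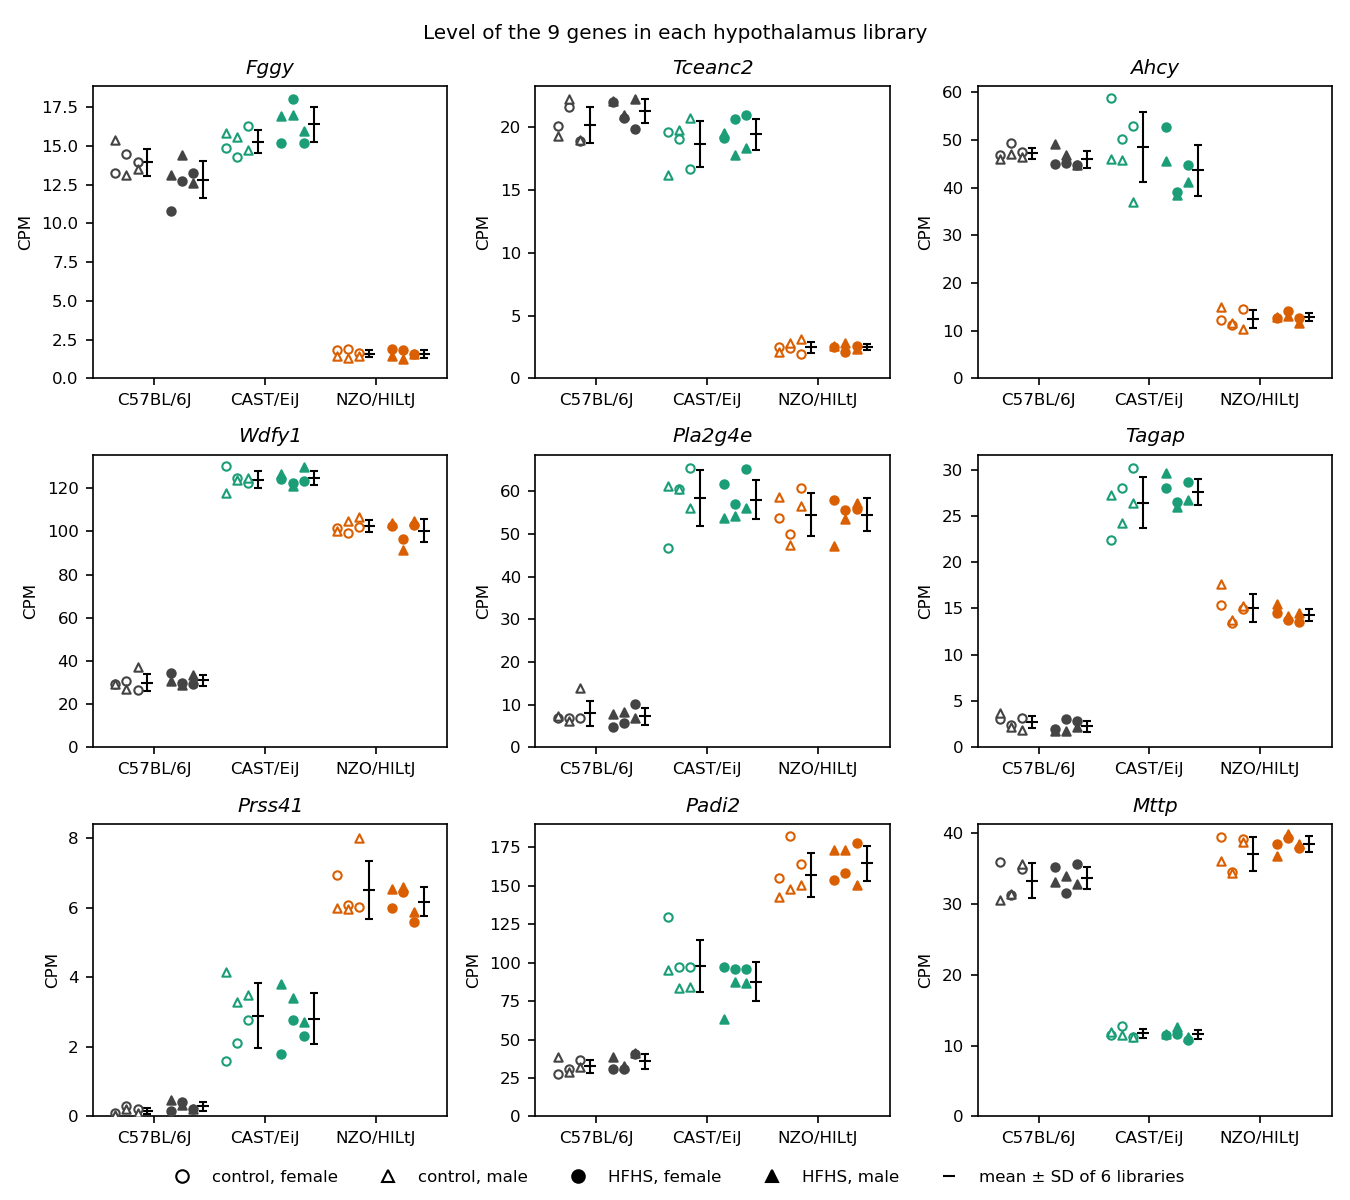
Level of each of the 9 genes (CPM, linear axis from 0, 1 panel per gene) in each of the 36 libraries, by strain, with control (open) and HFHS (filled), female (circle) and male (triangle), and the mean ± SD of 6 libraries. The NZO/HlLtJ libraries lie below all others for Fggy, Tceanc2 and Ahcy, whereas Mttp is low in CAST/EiJ.

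Fggy (chromosome 4, 95557507 to 95926939, plus strand) ranged from 1.22 to 1.91 CPM in the 12 NZO/HlLtJ libraries (median 1.56). The C57BL/6J libraries ran from 10.8 to 15.4 CPM (median 13.3), and the CAST/EiJ libraries from 14.3 to 18.03 CPM (median 15.7). No NZO/HlLtJ library came near the lowest of the others, while the C57BL/6J and CAST/EiJ ranges overlapped. The NZO/HlLtJ level was 11.8% of that in C57BL/6J, a log2 difference of -3.08 ± 0.06 (SE) over both diets. Against CAST/EiJ it was -3.32 ± 0.06. All estimated counts of Fggy were whole numbers, and no transcript of another gene shared a 100-base window with it.

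Tceanc2 (chromosome 4, 107134155 to 107179116, minus strand) ranged from 1.95 to 3.12 CPM in NZO/HlLtJ (median 2.5002). It ran from 18.9 to 22.3 CPM in C57BL/6J (median 20.9) and from 16.2 to 21.02 CPM in CAST/EiJ (median 19.4). Again the NZO/HlLtJ range lay apart and the other ranges overlapped. The log2 difference was -3.06 ± 0.06 (SE) from C57BL/6J and -2.94 ± 0.06 from CAST/EiJ, and CAST/EiJ less C57BL/6J was -0.12 ± 0.05. An antisense gene, Gm12802, shared 17.3% of the 100-base windows of Tceanc2. Use of strand in counting was not given in the sources used here. Without it the reads of the pair cannot be told apart. Tceanc2 counts were not whole in 17 of 36 libraries, and the sum with Gm12802 was whole in 8 of these. Tmem59, a gene on the opposite strand whose RefSeq start lies 264 bases from that of Tceanc2, had a median of 189 CPM in NZO/HlLtJ, 202 in C57BL/6J and 185 in CAST/EiJ, with ranges that overlapped. It shared 0.79% of the 100-base windows of Tceanc2, and the sum of Tceanc2 and Tmem59 was also whole in 8 of the 17 libraries. The part of these shared bases in the level of Tceanc2 was not tested. Tmem59, like Gm4737, Tagap1, Trmt10a and Mrpl44, was singled out after its values were seen.

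Ahcy on its own ranged from 10.4 to 14.9 CPM in NZO/HlLtJ (median 12.6), from 44.7 to 49.3 in C57BL/6J (median 46.6) and from 37.1 to 58.9 in CAST/EiJ (median 45.8). The NZO/HlLtJ level was 27.2% of that in C57BL/6J, a log2 difference of -1.88 ± 0.06 (SE), and -1.86 ± 0.06 against CAST/EiJ. Gm4737 went the other way. It ranged from 33.9 to 42.6 CPM in NZO/HlLtJ and from 1.496 to 13.4 CPM in CAST/EiJ. In C57BL/6J it reached at most 0.753 CPM and was at 0 in 8 of 12 libraries. The Ahcy share of the summed counts of the pair was 21.97% to 28.5% in NZO/HlLtJ, 98.4% to 100% in C57BL/6J and 74.4% to 97.0% in CAST/EiJ, with no overlap between strains.

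The sum of Ahcy and Gm4737 showed little of this difference. It ranged from 45.5 to 57.2 CPM in NZO/HlLtJ (median 49.9), from 44.7 to 49.6 in C57BL/6J (median 46.9) and from 44.95 to 62.8 in CAST/EiJ (median 52.1). All 3 ranges overlapped. The log2 difference of the sum was 0.09 ± 0.03 (SE) between NZO/HlLtJ and C57BL/6J and -0.07 ± 0.05 between NZO/HlLtJ and CAST/EiJ. Ahcy counts were not whole in 30 of 36 libraries, while the sum of the pair was whole, within 0.002 counts, in 27 of 36. With the pair summed, the low level of Ahcy in NZO/HlLtJ is no longer seen, while the division of the counts between the genes differed by strain. The reference sequence used for each strain was not given in the sources used here. Its part in the division was not tested.

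**Figure D2:**
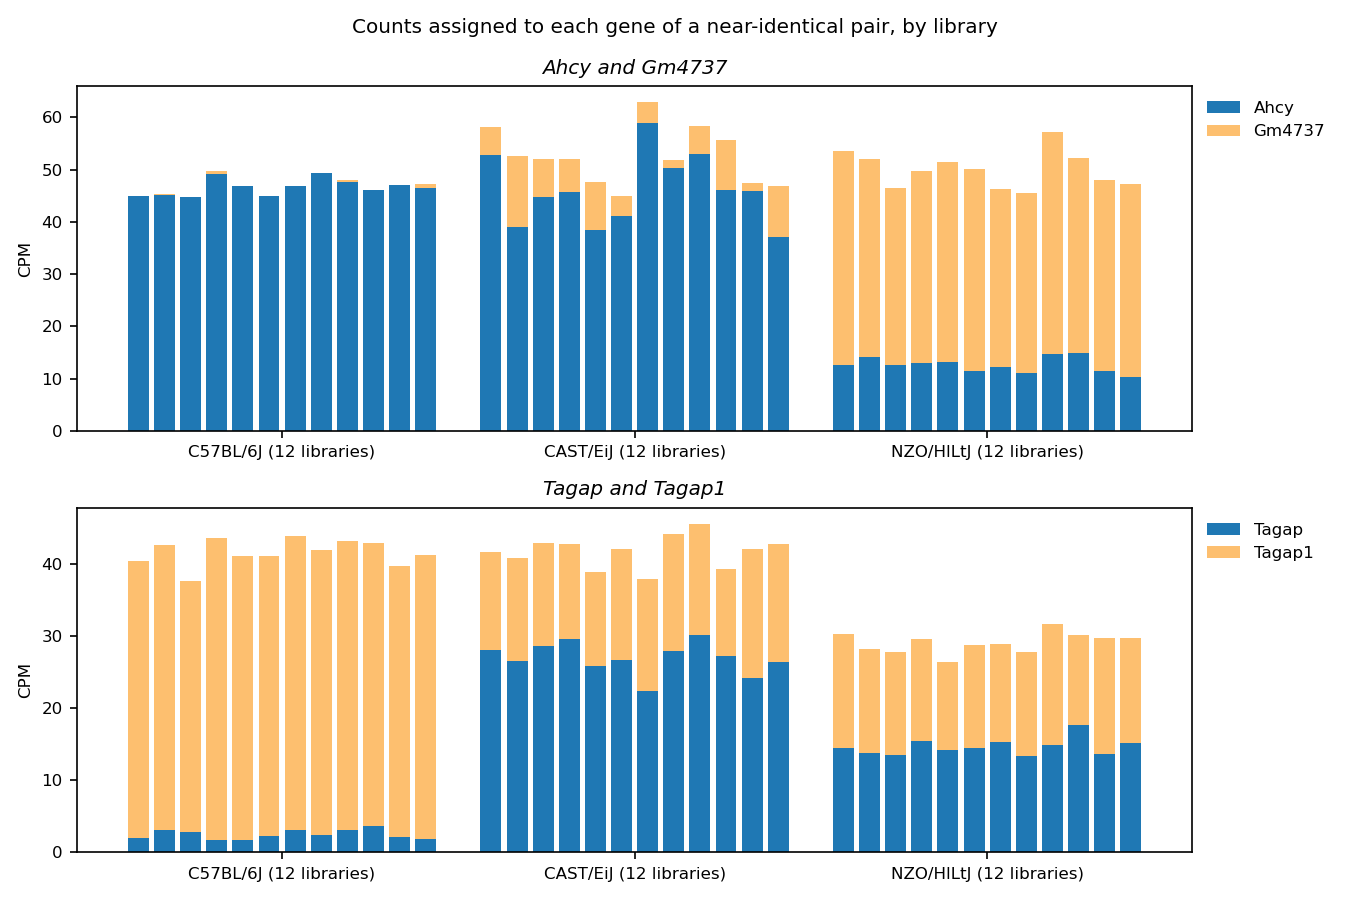
Counts (CPM, stacked bars from 0) assigned to Ahcy and Gm4737 (upper panel) and to Tagap and Tagap1 (lower panel) in each of the 36 libraries, ordered by strain. The stacked height of the upper panel overlaps in all 3 strains while the Ahcy part is 21.97% to 28.5% in NZO/HlLtJ, and the stacked height of the lower panel is lowest in NZO/HlLtJ.

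Wdfy1, Pla2g4e, Tagap and Prss41 were higher than in C57BL/6J in both NZO/HlLtJ and CAST/EiJ, and met the rule for a difference shared by these strains (the same rule with the strains exchanged, met by 1.43% of all tested genes, and by 0.708% with the higher level in NZO/HlLtJ). Wdfy1 (chromosome 1, 79702262 to 79776143, minus strand) ran from 91.2 to 106.6 CPM in NZO/HlLtJ (median 102.2) and from 118 to 130 CPM in CAST/EiJ (median 124). In C57BL/6J it ran from 26.7 to 37.1 CPM (median 29.6). The 3 ranges did not overlap, with CAST/EiJ above NZO/HlLtJ. The log2 difference from C57BL/6J was 1.73 ± 0.04 (SE) in NZO/HlLtJ and 2.02 ± 0.04 in CAST/EiJ, and NZO/HlLtJ was at 81.5% of CAST/EiJ. Mrpl44, which starts beside Wdfy1 on the opposite strand, had medians of 17.6, 17.99 and 17.5 CPM in NZO/HlLtJ, C57BL/6J and CAST/EiJ.

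Pla2g4e (chromosome 2, 120166412 to 120245335, minus strand) ran from 47.2 to 60.8 CPM in NZO/HlLtJ (median 55.8) and from 46.7 to 65.5 CPM in CAST/EiJ (median 58.9). The C57BL/6J libraries had 4.82 to 13.998 CPM (median 6.90). The NZO/HlLtJ and CAST/EiJ levels did not differ beyond their spread, with a log2 difference of -0.09 ± 0.09 (SE), and both lay clear of C57BL/6J. The level in NZO/HlLtJ was 7.13-fold that in C57BL/6J, and in CAST/EiJ it was 7.61-fold. The highest C57BL/6J library, control male 3 at 13.998 CPM, was well above the next control library at 7.45 CPM, and without it the log2 difference of NZO/HlLtJ from C57BL/6J was 2.95 in place of 2.83. Gm13997, on the same strand, shared 1.28% of the 100-base windows of Pla2g4e. Pla2g4e counts were not whole in 7 NZO/HlLtJ, 10 CAST/EiJ and 0 C57BL/6J libraries, and in all 17 the sum with Gm13997 was whole. The part of Gm13997 in the level of Pla2g4e was not tested.

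Prss41 (chromosome 17, 23836785 to 23844172, minus strand) was barely detected in C57BL/6J, with 1 to 18 counts per library and 0.0365 to 0.467 CPM (median 0.208). It had 159 to 315 counts in NZO/HlLtJ, 5.59 to 8.002 CPM (median 6.05), and 52 to 167 counts in CAST/EiJ, 1.60 to 4.14 CPM (median 2.77). The 3 strains did not overlap, and NZO/HlLtJ was the highest. The log2 difference from C57BL/6J was 4.87 ± 0.16 (SE) in NZO/HlLtJ and 3.69 ± 0.17 in CAST/EiJ. NZO/HlLtJ was 2.27-fold above CAST/EiJ, so that Prss41 was graded rather than equal in these strains.

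Tagap by itself ran from 13.4 to 17.7 CPM in NZO/HlLtJ (median 14.5), from 1.77 to 3.69 in C57BL/6J (median 2.34) and from 22.4 to 30.2 in CAST/EiJ (median 27.0). The strains did not overlap. NZO/HlLtJ was 5.92-fold above C57BL/6J and at 54.3% of CAST/EiJ. Tagap1 held the larger part in C57BL/6J, with 34.9 to 41.8 CPM, against 12.3 to 16.7 in NZO/HlLtJ and 12.03 to 17.8 in CAST/EiJ. The Tagap share of the summed pair was 46.1% to 58.7% in NZO/HlLtJ, 4.09% to 8.60% in C57BL/6J and 57.6% to 69.4% in CAST/EiJ.

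Summing Tagap and Tagap1 turned the comparison of NZO/HlLtJ with C57BL/6J around. The sum ranged from 26.5 to 31.7 CPM in NZO/HlLtJ (median 29.3), from 37.7 to 43.9 in C57BL/6J (median 41.6) and from 37.9 to 45.6 in CAST/EiJ (median 42.1). NZO/HlLtJ lay below both other strains without overlap, and those overlapped almost wholly. The NZO/HlLtJ sum was 69.8% of that in C57BL/6J (log2 difference -0.52 ± 0.03, SE) and 69.7% of that in CAST/EiJ. Unlike the Ahcy pair, the sum was whole in 0 of 36 libraries. The antisense gene E430024P14Rik shared 14.4% of the 100-base windows of Tagap. It ran from 0.796 to 1.65 CPM in NZO/HlLtJ, from 4.52 to 7.70 in C57BL/6J and from 7.52 to 11.4 in CAST/EiJ, and its reads cannot be told apart from those of Tagap without strand.

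The remaining genes, Padi2 and Mttp, met neither rule, like 97.2% of all tested genes. Padi2 (chromosome 4, 140906344 to 140952586, plus strand) was graded, with 143 to 183 CPM in NZO/HlLtJ (median 157), 63.2 to 129.8 in CAST/EiJ (median 95.6) and 27.9 to 41.0 in C57BL/6J (median 32.4). No ranges overlapped. NZO/HlLtJ was 4.72-fold above C57BL/6J and 1.74-fold above CAST/EiJ, with log2 differences of 2.24 ± 0.07 (SE) and 0.80 ± 0.06. The highest CAST/EiJ value, 129.8 CPM, came from the control female 1 library that also had the most oligodendrocyte markers of that strain. Without that library and CAST/EiJ control male 1 the log2 difference of NZO/HlLtJ from CAST/EiJ was 0.86. Of 9 oligodendrocyte markers 8 were called higher in NZO/HlLtJ than in CAST/EiJ, where 53.7% of all genes were called. Against C57BL/6J, where 26.6% of all genes were called, 9 of 9 were called lower in NZO/HlLtJ, among them Mobp (-0.62 ± 0.11, adjusted p = 2.89e-05, edgeR) and Opalin (-0.81 ± 0.12, adjusted p = 1.49e-06, edgeR). Their summed level was 3150 to 4291 CPM in NZO/HlLtJ, 4157 to 6560 in C57BL/6J and 2083 to 6050 in CAST/EiJ, and its part in the level of Padi2 was not tested. The antisense gene Gm13031, with a mean of 0.436 CPM, shared 1.13% of the 100-base windows of Padi2. Padi2 counts were not whole in 19 libraries, and the sum with Gm13031 was whole in 18 of these.

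Mttp (chromosome 3, 138089854 to 138144968, minus strand) marked CAST/EiJ rather than NZO/HlLtJ. It ran from 34.4 to 39.9 CPM in NZO/HlLtJ (median 38.5), from 30.6 to 36 in C57BL/6J (median 33.5) and from 10.8 to 12.8 in CAST/EiJ (median 11.5). The NZO/HlLtJ and C57BL/6J ranges overlapped, and CAST/EiJ lay below both. The log2 difference was 0.17 ± 0.04 (SE) between NZO/HlLtJ and C57BL/6J and 1.70 ± 0.04 between NZO/HlLtJ and CAST/EiJ. The neighbour Trmt10a, a tRNA methyltransferase gene on the opposite strand, was also low in CAST/EiJ, with 3.49 to 5.36 CPM against 7.504 to 10.8 in C57BL/6J and 9.11 to 11.3 in NZO/HlLtJ. In 9 of the 13 libraries in which the Mttp count was not whole, the sum with Trmt10a was whole. The antisense gene Gm43691 shared 0.932% of the 100-base windows of Mttp.

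In RefSeq the starts of Mttp and Trmt10a lie 30 bases apart, and the promoter window is shown because both genes were low in CAST/EiJ. The gene positions given above place the start of Mttp farther upstream, at 138144968 and inside Trmt10a, 1.52 kb from the Trmt10a start, so the annotations disagree. The sequence is the RefSeq window of Mttp, chr3:138143369-138143668 of GRCm38.p6, minus strand, 5′ to 3′. Capitals mark the 30 bases that separate the start of Mttp from the nearest annotated start of Trmt10a.
Mttp: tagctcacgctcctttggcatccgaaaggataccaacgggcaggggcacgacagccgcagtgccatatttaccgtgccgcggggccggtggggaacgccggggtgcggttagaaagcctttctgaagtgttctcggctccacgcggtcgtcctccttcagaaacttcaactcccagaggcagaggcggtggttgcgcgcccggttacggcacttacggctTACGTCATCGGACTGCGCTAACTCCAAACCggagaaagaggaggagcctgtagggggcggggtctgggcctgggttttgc
RefSeq promoter windows were found for 8 of the 9 genes, Wdfy1 being the exception.

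Over both diets, then, 3 of the 9 genes were private to NZO/HlLtJ, 4 were shared with CAST/EiJ and 2 met neither rule. With limma on the deposited log2 values Tagap and Prss41 left the shared class, which leaves 2 genes there. With the copies summed these counts were 2, 3 and 4. Ahcy and Tagap are the genes that left their class. In the fit, 9 of 9 genes were called between NZO/HlLtJ and C57BL/6J on the control diet, where 17.7% of all tested genes were, and 9 of 9 on HFHS, where 15.8% were. Between NZO/HlLtJ and CAST/EiJ 8 were called on each diet, Pla2g4e being the exception, beside 42.9% and 43.1% of all genes. Between CAST/EiJ and C57BL/6J the counts were 6 on control and 7 on HFHS, beside 42.6% and 42.5%. By ranges of 12 libraries, 8 genes did not overlap between NZO/HlLtJ and C57BL/6J (4.89% of all genes), 8 between NZO/HlLtJ and CAST/EiJ (12% of all), 6 between CAST/EiJ and C57BL/6J (11.7% of all), and 7 between NZO/HlLtJ and both others at once (1.77% of all). These calls and ranges use the contrasts that chose the genes, and nothing is read from either.

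**Figure D3:**
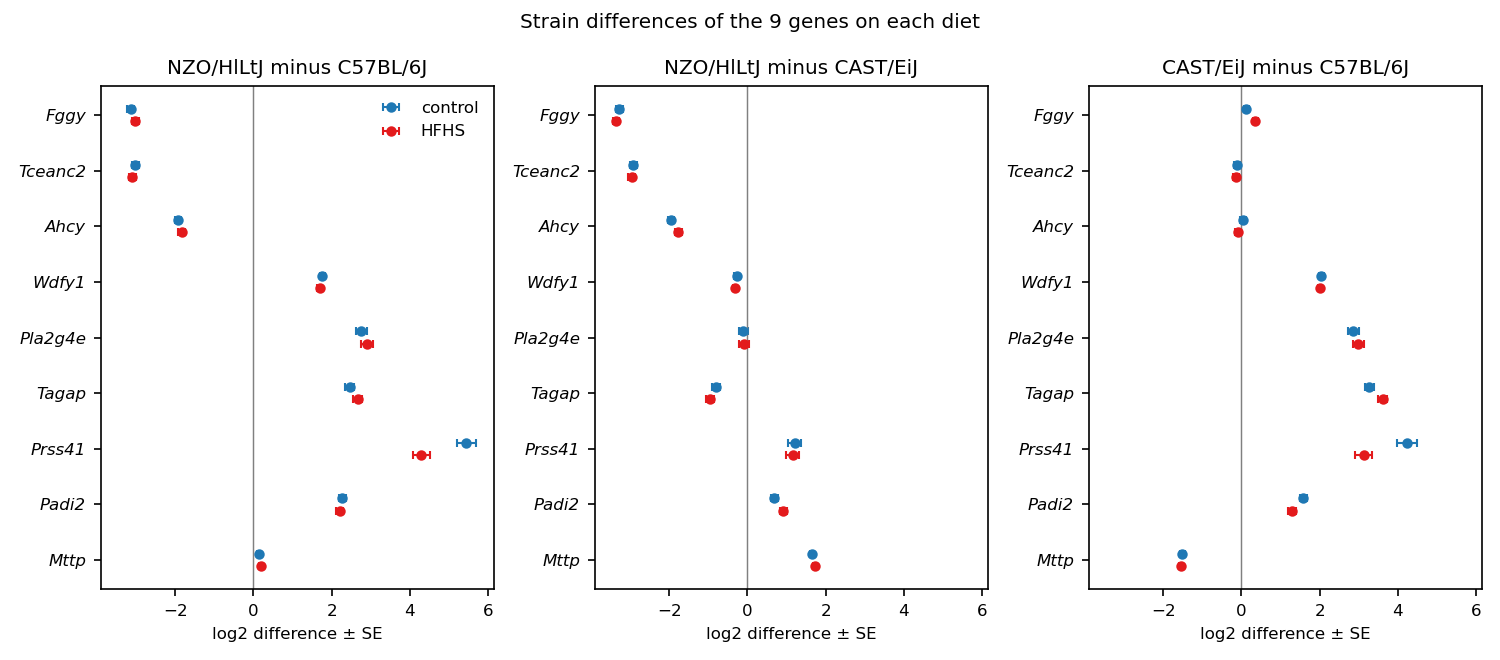
Log2 difference ± SE (x axis) of each of the 9 genes (y axis) between NZO/HlLtJ and C57BL/6J, NZO/HlLtJ and CAST/EiJ, and CAST/EiJ and C57BL/6J, on the control diet (blue) and HFHS (red). Fggy lies at -3.14 on control and -3.02 on HFHS between NZO/HlLtJ and C57BL/6J, and the widest gap between diets in that comparison is that of Prss41, at 5.45 and 4.30.

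The strain differences were of similar size on both diets for most of the 9 genes, as the plot of strain differences shows. Between NZO/HlLtJ and C57BL/6J, Tceanc2 was at -3.03 on control and -3.10 on HFHS, and Ahcy was at -1.92 and -1.84. Wdfy1 was at 1.77 and 1.69, Pla2g4e at 2.76 and 2.91, Tagap at 2.46 and 2.67, and Padi2 at 2.27 and 2.21. Mttp, the smallest of the 9, was at 0.15 and 0.19. Between CAST/EiJ and C57BL/6J, Mttp was at -1.51 on control and -1.54 on HFHS, and Padi2 was at 1.58 and 1.29.

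The question of whether the HFHS diet moved these genes was answered within each strain. None of the 9 passed the test for diet: edgeR called 0 of 9 in NZO/HlLtJ (0.145% of all genes called), 0 of 9 in CAST/EiJ (0.12%) and 0 of 9 in C57BL/6J (0%). DESeq2 and limma also called 0 in each strain. At an unadjusted p under 0.05 there were 0, 0 and 2 genes, beside 10.4%, 17.3% and 3.43% of all genes. In NZO/HlLtJ the 9 estimates ran from -0.07 (Prss41, SE 0.16) to 0.07 (Padi2, SE 0.09) on the log2 scale. In CAST/EiJ they ran from -0.16 (Padi2, SE 0.09) to 0.10 (Fggy, SE 0.07). Fggy had a median of 1.55 CPM on control and 1.56 on HFHS in NZO/HlLtJ, and Wdfy1 had 102 and 103 CPM, with ranges that overlapped throughout.

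The estimate of largest size was for Prss41 in C57BL/6J, the strain that hardly had it: 0.0365 to 0.287 CPM on control and 0.146 to 0.467 on HFHS. The ranges overlapped, at 1 to 18 counts per library. The log2 difference was 1.08 ± 0.33 (SE), with an unadjusted p of 0.0026 and an adjusted p above 0.99 (edgeR). Tagap was the other gene in C57BL/6J with an unadjusted p under 0.05 (-0.27 ± 0.13, unadjusted p = 0.0472, edgeR). Neither passed the adjustment. Tagap held only 4.09% to 8.60% of the counts of the Tagap and Tagap1 pair in C57BL/6J. The sum of the pair there ran from 39.8 to 43.9 CPM on control and from 37.7 to 43.6 on HFHS, ranges that overlapped.

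Nor did the diet difference of any of the 9 differ between strains past the threshold. edgeR called 0 of 9 for NZO/HlLtJ less C57BL/6J (0% of all genes), 0 of 9 for NZO/HlLtJ less CAST/EiJ (1.8%) and 0 of 9 for CAST/EiJ less C57BL/6J (0%), and so did DESeq2 and limma. At an unadjusted p under 0.05 the counts were 1, 0 and 4, beside 6.66%, 19.3% and 10.2% of all genes. Prss41 had the largest of these estimates, -1.15 ± 0.37 (SE) for NZO/HlLtJ less C57BL/6J (adjusted p = 0.527, edgeR).

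**Figure D4:**
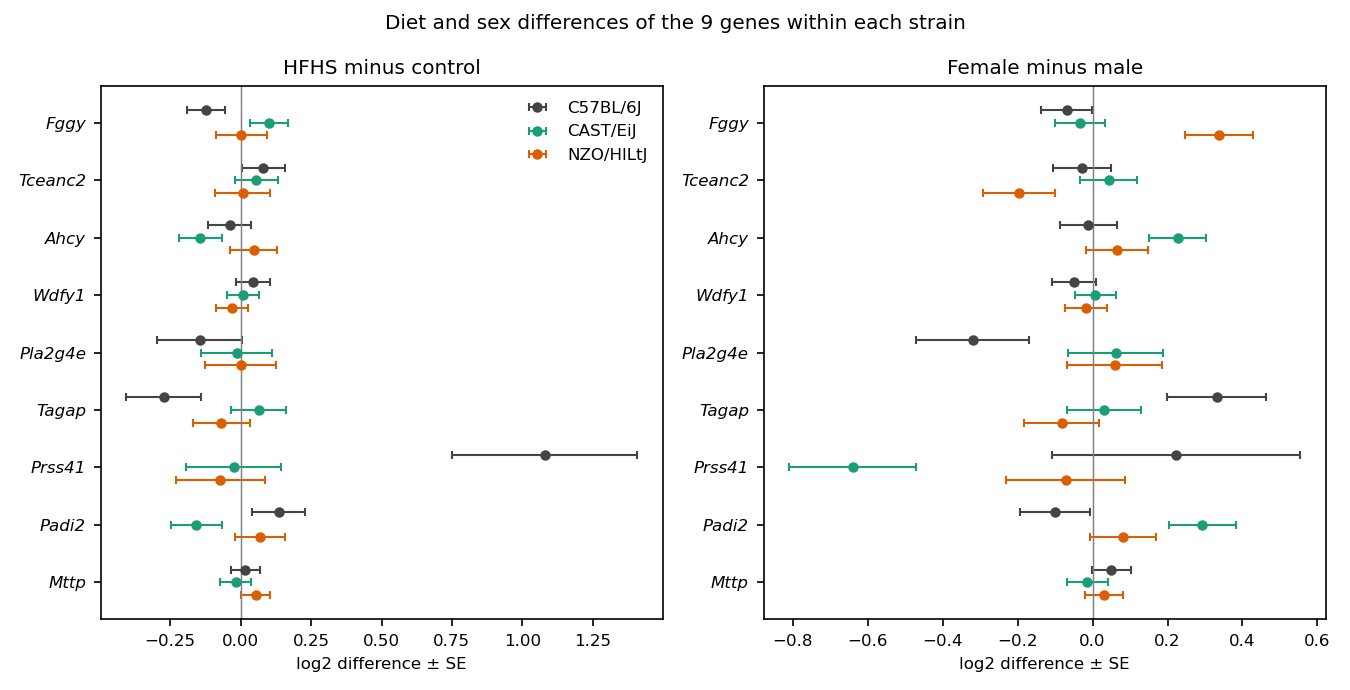
Log2 difference ± SE (x axis) of each of the 9 genes (y axis) between HFHS and control (left) and between females and males (right), within C57BL/6J, CAST/EiJ and NZO/HlLtJ. Most diet points lie near 0, with Prss41 in C57BL/6J at 1.08, and the sex points range from -0.64 (Prss41 in CAST/EiJ) to 0.34 (Fggy in NZO/HlLtJ).

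Sex was compared as female less male over both diets. edgeR called 0 of 9 genes in NZO/HlLtJ (0.0698% of all genes called), 0 of 9 in CAST/EiJ (0.185%) and 0 of 9 in C57BL/6J (0.194%), with 1, 3 and 2 genes at an unadjusted p under 0.05, beside 5.23%, 18.9% and 5.69% of all genes. limma called 0 in each strain, and DESeq2 called 1, Prss41 in CAST/EiJ. Prss41 ran from 1.60 to 2.77 CPM in the 6 CAST/EiJ females and from 2.70 to 4.14 in the 6 males, with a narrow overlap. Its log2 difference was -0.64 ± 0.17 (SE), with an adjusted p of 0.0912 by edgeR and 0.0084 by DESeq2.

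Padi2 also stood near the threshold in CAST/EiJ, with 95.7 to 129.8 CPM in females and 63.2 to 95.4 in males, ranges that did not overlap. The log2 difference was 0.29 ± 0.09 (SE; adjusted p = 0.113, edgeR). Ahcy was at 0.23 ± 0.08 (adjusted p = 0.133, edgeR) in the same strain, where the sum of Ahcy and Gm4737 ran from 51.9 to 62.8 CPM in females and from 44.95 to 55.7 in males. With all 36 libraries edgeR called none of Prss41, Padi2 and Ahcy. Without CAST/EiJ control female 2 all 3 genes passed in edgeR (adjusted p = 0.0168 for Prss41, 0.0204 for Padi2 and 0.0396 for Ahcy). The DESeq2 call of Prss41 was not repeated with libraries left out. Without CAST/EiJ control female 1 and male 1 together, the adjusted p (edgeR) was 0.220 for Prss41 and 0.238 for Padi2. Ahcy, whose highest CAST/EiJ value of 58.9 CPM came from control female 1, was not called there either.

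Fggy was the only gene of the 9 with an unadjusted p under 0.05 for sex in NZO/HlLtJ. It had 1.55 to 1.91 CPM in the 6 females and 1.22 to 1.56 in the 6 males, ranges that touch, with a log2 difference of 0.34 ± 0.09 (SE; adjusted p = 0.653, edgeR). For differences in the sex effect between strains, edgeR, DESeq2 and limma each called 0 of 9 in all 3 contrasts, where edgeR called 0% of all genes. At an unadjusted p under 0.05 there were 2 genes for NZO/HlLtJ less C57BL/6J (5.94% of all genes), 2 for NZO/HlLtJ less CAST/EiJ (8.84%) and 3 for CAST/EiJ less C57BL/6J (15.5%). Leaving out CAST/EiJ control female 2 brought 1 call, Padi2 for CAST/EiJ less C57BL/6J (adjusted p = 0.0419, edgeR).

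Genes around the 9 were examined to see whether strain differences extended along the chromosome. Within 500 kb of either end of the 9 genes lay 150 other tested genes, of which 61 (40.7%) were called between NZO/HlLtJ and C57BL/6J, 28 higher and 33 lower, beside 26.6% of all tested genes. Between NZO/HlLtJ and CAST/EiJ 81 (54%) were called, beside 53.7% of all, and between CAST/EiJ and C57BL/6J 72 (48%), beside 55.5%. Around Wdfy1 0 of 7 neighbours were called between NZO/HlLtJ and C57BL/6J by edgeR, with a smallest adjusted p of 0.0645 for Serpine2 (named after its value was seen), around Fggy 1 of 5, around Tceanc2 3 of 16, and around Padi2 13 of 21. Around Pla2g4e the count was 12 of 26, around Tagap 6 of 12, around Prss41 15 of 30, around Ahcy 5 of 17 and around Mttp 6 of 16. The 15 and the 61 include Prss32, Prss33 and Gm15947, with means of 0.209, 0.215 and 0.192 CPM over the 36 libraries. Those 3 passed the filter through the strains in which they were higher. Other called neighbours with means under 1 CPM were Abca17 and 1520401A03Rik near Prss41, and Padi1, Spata21 and Hspb7 near Padi2. Gm13999 near Pla2g4e, Rnaset2a near Tagap and Adh1 near Mttp were further ones. Whether these also passed through 1 strain was not examined, and the counts were not repeated without genes of such low level.

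The single called neighbour of Fggy was Cyp2j12, a cytochrome P450 gene that starts 584 kb from the start of Fggy, a long gene, and lies within 500 kb of its other end. Cyp2j12 was also lower in NZO/HlLtJ (-1.45 ± 0.15, SE; adjusted p = 4.63e-09, edgeR). Near Tceanc2, Acot11, an acyl-CoA thioesterase gene, was lower (-0.80 ± 0.05; adjusted p = 4.34e-15, edgeR), and Mroh7 was higher (1.25 ± 0.07; adjusted p = 1.58e-15, edgeR). Near Padi2, Crocc, which encodes the ciliary rootlet protein, was lower in NZO/HlLtJ than in C57BL/6J (-1.21 ± 0.07; adjusted p = 8.14e-15, edgeR).

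Prss41 lies in a cluster of serine protease genes, of which 12 others were listed, 5 were in the table and 3 passed the filter on low counts. Prss32 had a median of 0.321 CPM in NZO/HlLtJ, 0.209 in CAST/EiJ and 0 in C57BL/6J. Prss33 had medians of 0.469, 0.138 and 0 CPM in the same order. With so few counts in C57BL/6J these 2 genes passed the filter through the strains in which they were higher. No test of either is given, although both are among the called neighbours counted above. Prss30, 131 kb away, was present in all strains, with 0.767 to 2.16 CPM in NZO/HlLtJ and 0.513 to 1.34 in C57BL/6J, ranges that overlapped (log2 difference 0.49 ± 0.18, SE; adjusted p = 0.0421, edgeR). Prss32 begins within the annotated span of Prss41 on the opposite strand. In the search for copies no transcript of another gene shared an exact window with Prss41, and all estimated counts of Prss41 were whole numbers. Overlaps of the transcripts shorter than such a window were not tested.

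**Figure D5:**
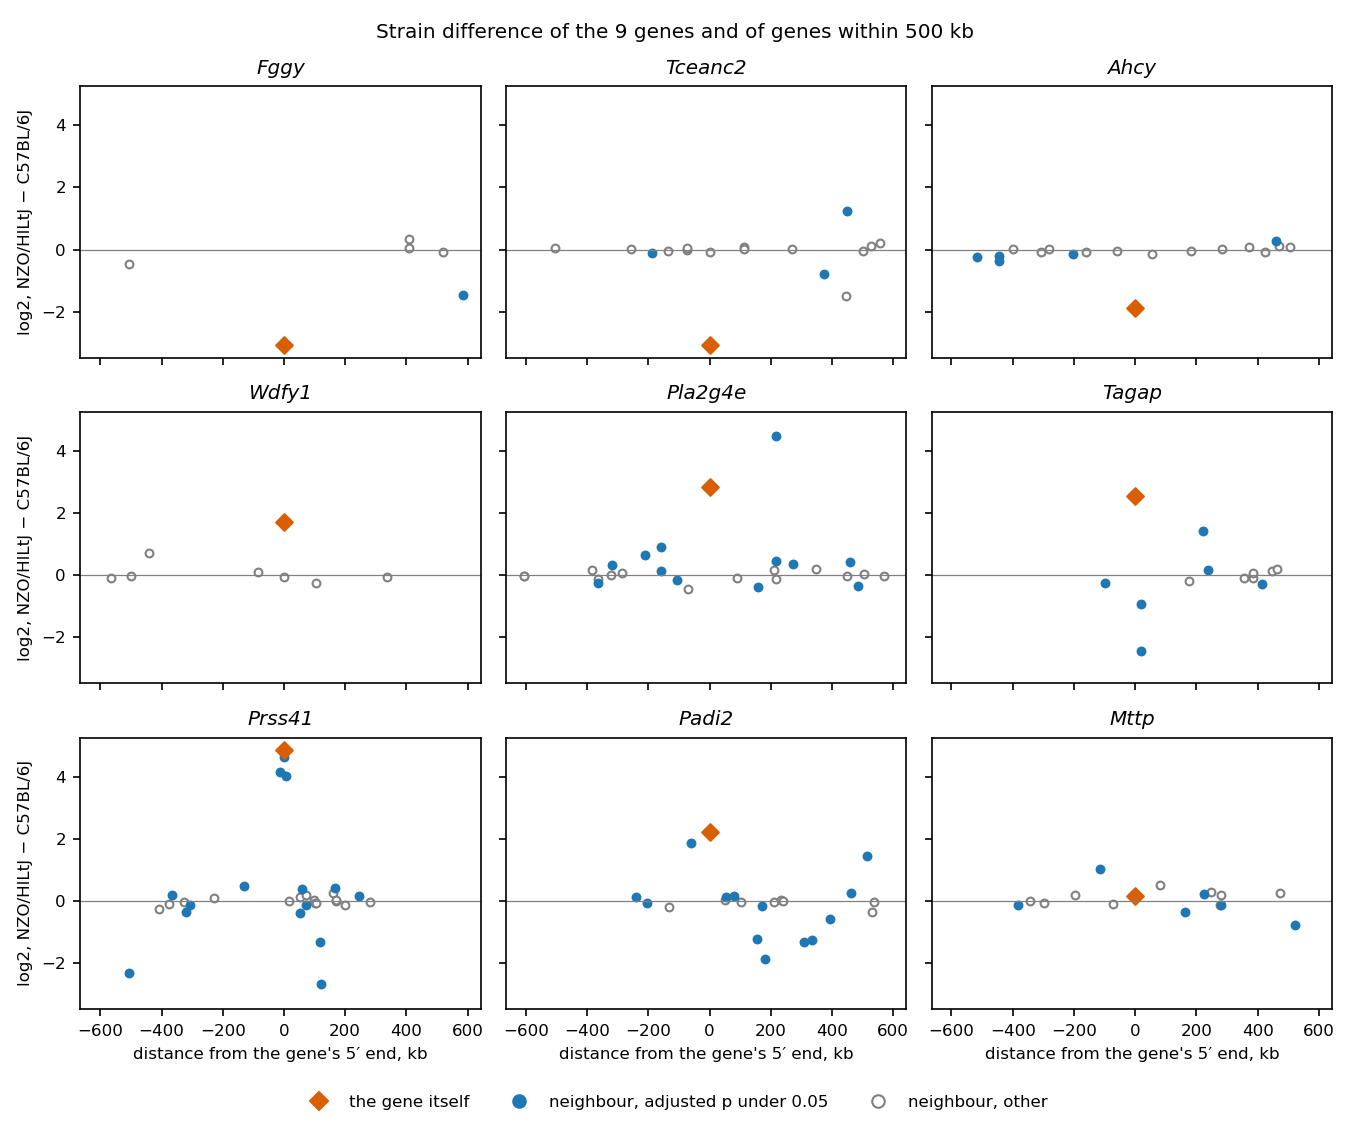
Log2 difference of NZO/HlLtJ from C57BL/6J (y axis) against distance from the 5′ end of each of the 9 genes in kb (x axis), for the gene itself (diamond) and for tested genes within 500 kb (filled, adjusted p under 0.05 in edgeR; open, other). Wdfy1 has 0 called neighbours of 7 and Padi2 has 13 of 21. The fitted height of Prss32 and Prss33, next to Prss41, depends on the prior count, since both have a median of 0 CPM in C57BL/6J.

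Genes of the same pathways, without the 9 themselves, were counted by list, beside 26.6% of all tested genes called between NZO/HlLtJ and C57BL/6J. Of 16 tested genes of the methionine and S-adenosylmethionine cycle, 2 were called higher and 6 lower in NZO/HlLtJ than in C57BL/6J, with a median log2 difference of -0.01 beside 0.00 for all tested genes. The Ahcy-like gene Ahcyl2 was lower (-0.25 ± 0.03, SE; adjusted p = 7.08e-08, edgeR). Mtrr, which reactivates methionine synthase, was higher (0.47 ± 0.07; adjusted p = 1.53e-06, edgeR). Of 19 genes of lipoprotein assembly and uptake, 7 were called higher and 2 lower in the same contrast, with Lpl, lipoprotein lipase, at 0.77 ± 0.12 (adjusted p = 7.74e-06, edgeR) and Apoc1 at 0.80 ± 0.13 (adjusted p = 1.63e-05, edgeR). Ahcyl2 was also lower in CAST/EiJ than in C57BL/6J (-0.27 ± 0.03; adjusted p = 5.71e-09, edgeR). In that contrast 9 of the 16 methionine cycle genes were called higher and 4 lower, beside 55.5% of all tested genes.

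For Mttp the contrast of interest is CAST/EiJ less C57BL/6J, in which 4 of the 19 lipoprotein genes were called higher and 7 lower, while 55.5% of all tested genes were called. Lpl was lower there (-0.61 ± 0.13, SE; adjusted p = 0.000118, edgeR) and Apoc1 was higher (1.00 ± 0.13; adjusted p = 1.51e-07, edgeR). Among 5 genes for peptidylarginine deiminases and their substrates, 3 were called higher and 1 lower in NZO/HlLtJ than in C57BL/6J. Gfap, the astrocyte filament protein, was higher (1.51 ± 0.13; adjusted p = 7.23e-11, edgeR), and Mbp, myelin basic protein, was lower (-0.35 ± 0.09; adjusted p = 0.00202, edgeR).

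Of 14 cytosolic phospholipases A2 and endocannabinoid enzymes, 3 were called higher and 4 lower in NZO/HlLtJ than in C57BL/6J. Napepld, which releases N-acylethanolamines from the precursors that Pla2g4e makes, was lower (-0.23 ± 0.05, SE; adjusted p = 0.000609, edgeR). Abhd4, of an alternative route to the same lipids, was higher (0.22 ± 0.05; adjusted p = 0.000403, edgeR). Of 16 genes of toll-like receptor adaptor signalling 2 were called higher and 1 lower, with the receptor gene Tlr3 at 0.29 ± 0.06 (adjusted p = 0.000600, edgeR) and the Wdfy1 relative Wdfy2 at -0.24 ± 0.07 (adjusted p = 0.00606, edgeR). Of 4 other FGGY kinases 1 was called higher and 0 lower, and of 10 TFIIS and elongation genes 1 was higher and 2 lower. Napepld was also lower in CAST/EiJ than in C57BL/6J (-0.34 ± 0.05, SE; adjusted p = 9.72e-07, edgeR). In that contrast 5 of the 14 genes of its list were called higher and 4 lower, beside 55.5% of all tested genes.

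Markers of other cells were set beside the genes known from those cells. T cell markers were low in every strain, where the summed level of 7 genes was 2.78 to 4.59 CPM in NZO/HlLtJ, 3.39 to 4.76 in C57BL/6J and 2.92 to 5.10 in CAST/EiJ. Cd8a had a median of at most 0.0324 CPM in any strain and was at 0 in at least 1 library of each. The median log2 difference of the 4 T cell markers tested was -0.03 between NZO/HlLtJ and C57BL/6J, and the part of T cells in the level of Tagap was not tested. Of 9 microglial markers, 3 were called higher and 2 lower in NZO/HlLtJ than in C57BL/6J, where 26.6% of all tested genes were called. Of 7 astrocyte markers 4 were called higher and 0 lower in the same contrast. In CAST/EiJ less C57BL/6J 3 of the 7 were called higher and 1 lower, beside 55.5% of all tested genes. The astrocyte sums were 3809 to 5285 CPM in NZO/HlLtJ, 3024 to 3718 in C57BL/6J and 3157 to 4363 in CAST/EiJ, where they overlapped C57BL/6J. The part of astrocytes in the level of Padi2, which glia express, was not tested.

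The genes with patterns most like the 9 over the 36 libraries were ranked by Pearson r of log2 CPM, as a description of libraries that share strain, diet and sex groups. Gstm6, a glutathione S-transferase gene, was among the closest 2 for each of the 3 genes low in NZO/HlLtJ, with r of 0.98 for Fggy, Tceanc2 and Ahcy. Prss41 and Padi2 shared the predicted gene Gm7068 (r of 0.96 for each). After the 12 group means were subtracted, which removes strain, diet and sex, Padi2 was closest to the oligodendrocyte gene Opalin (r = 0.80, and 0.76 without CAST/EiJ control female 1). In the same measure Pla2g4e was closest to Rsad1 (r = 0.87), and Mttp to Parn, a poly(A)-specific ribonuclease gene (r = 0.66).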

How the data were processed

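The authors deposited expected counts, estimated per gene from the reads, for 36 libraries, a table of log2-scale values from a variance-stabilizing transformation, and gene positions. Per the submitters' processing notes the build was GRCm38 and DESeq2 was used; the aligner, the counting tool, its use of strand, the annotation release and the reference used for each strain were not given in the sources used here. Of the deposited count values 21.4% were not whole, although whole counts had been assumed when the tests were set, and they were rounded, which changed no library total by more than 0.000186%. The 9 genes and the gene lists were chosen with earlier results of these data known.

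All 36 libraries were fitted as 12 groups in 1 quasi-likelihood model (edgeR 4.0.16, R 4.3.3; TMM scaling, filterByExpr, 24 residual degrees of freedom), with Benjamini-Hochberg adjustment over the 20053 genes tested and calls at an adjusted p under 0.05. The common biological coefficient of variation was 12.1%. Alternatives were median-ratio size factors, DESeq2 1.42.0, limma 3.58.1 on the deposited log2 values, no filter, at least 1 CPM in 18 libraries, only the strains compared, and each library left out.

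Copies were sought among GENCODE M21 transcripts with blastn 2.17.0 and kept where they shared a 100-base window exactly. Promoters are from RefSeq tables of GRCm38.p6. Sums over copies were chosen after seeing the data. Neighbours named are up to 3 per gene with the largest NZO/HlLtJ less C57BL/6J difference among those called at a mean of at least 1 CPM, and list genes named are among the 3 with the smallest p in the contrast.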

Additional observations from a re-analysis of the deposited data

Results flagged for a closer look

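Within each strain and diet, the gap between the highest or lowest of 6 libraries and the next was divided by the range of all 6. This was done for the 9 genes, 54 groups in all, and each group mixed females and males. Chance alone sets a library apart in about 1 in 20 groups, and 3 groups had such a library. Padi2 was at 129.8 CPM in CAST/EiJ control female 1, against 97.5 in the next library, and this library also had the highest oligodendrocyte and pituitary marker sums of that strain. Padi2 was at 63.2 CPM in CAST/EiJ HFHS male 1, the lowest of its group, against 87.0 in the next. Pla2g4e was at 13.998 CPM in C57BL/6J control male 3, against 7.45 in the next. Without that library the female less male difference of Pla2g4e in C57BL/6J went from -0.32 to -0.09 on the log2 scale.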

How the results depend on the processing

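No paired analysis was possible because the labels give no shared replicate numbers. Under median-ratio size factors, no filter, the stricter filter and the fit of only the strains compared, every count of genes called and every class count stayed within 1.5 times its value in the report. With DESeq2 the count called for sex in CAST/EiJ went from 0 to 1. With limma on the deposited log2 values the genes shared with CAST/EiJ went from 4 to 2 and those meeting neither rule from 2 to 4, Tagap and Prss41 being the genes that moved (the cause was not tested). With the copies summed (chosen after seeing the data) those meeting neither rule were 4, and the log2 difference of NZO/HlLtJ from C57BL/6J turned to 0.0946 for Ahcy and -0.52 for Tagap. Leaving out 1 library at a time, the count called for sex in CAST/EiJ ranged from 0 to 3 and that for the sex difference of CAST/EiJ less C57BL/6J from 0 to 1, each through CAST/EiJ control female 2. The count called between NZO/HlLtJ and C57BL/6J on control ranged from 8 to 9, and the called neighbours from 54 to 67 (NZO/HlLtJ and C57BL/6J), 76 to 84 (NZO/HlLtJ and CAST/EiJ) and 66 to 80 (CAST/EiJ and C57BL/6J). The other counts of called genes and the class counts did not move when 1 library was left out. Leaving out CAST/EiJ control female 1 and male 1 together (chosen after seeing the data) changed no count of the 9 genes called. Depth limits Prss41 in C57BL/6J, at 1 to 18 counts.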
